A study of Mus musculus with 9 samples.

Results

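The genes described here are 35 genes of DNA repair and the DNA damage checkpoint, taken by symbol from the 54532 entries of each count file. All 35 were found, each on 1 entry, and 34 passed the filter on low counts, Mgmt being the exception. The data were RNA-seq gene counts of 9 whole tumours, 3 in each of 3 groups. B16-F10, a mouse melanoma cell line, carried either a control short hairpin RNA (shcontrol, labelled WT) or 1 of 2 short hairpin RNAs against Fbxo38 (shFBXO38#1 and shFBXO38#2, here hairpin 1 and hairpin 2). The cells grew under the skin of C57BL/6 mice, of an age and sex that the labels leave out, and tumours were taken on day 16 with no further treatment. The genotype labels of the 6 hairpin samples run from FBXO38 to FBXO43, so groups follow the sample titles. Whether each line was a clone or a pool, and whether replicates came from separate mice, is not said in the labels. The p-values therefore describe the spread among these tumour libraries, which may be technical.

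Library totals lay between 15322163 and 17342554 counts. The 8 melanoma markers summed to between 22620 and 32930 CPM (counts scaled to the effective library size) in the 9 libraries, and each of them was detected. Markers of other cells were present too: 10 leukocyte markers summed to 39.3 to 329 CPM, and 7 fibroblast markers to 167 to 1420 CPM except in hairpin 1 replicate 1, at 3330 CPM. The 4 erythroid markers summed to 20670 CPM in hairpin 2 replicate 2 and to at most 4784 CPM in every other library. Counts below are also given without these 2 libraries. The targeted gene, Fbxo38, stood at 21.6, 31.3 and 30.7 CPM in control, 35.1, 20.96 and 22.01 CPM in the libraries labelled hairpin 1 and 20.9, 11.4 and 11.9 CPM with hairpin 2. The log2 fold change was -0.92 (SE 0.29; edgeR adjusted p = 0.254) with hairpin 2 and -0.10 (SE 0.28; edgeR adjusted p = 1) in the libraries labelled hairpin 1, and that group is called by its label throughout.

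Cells repair DNA by several routes, each for a kind of lesion. Glycosylases remove damaged bases in base excision repair, mismatch repair corrects replication errors, nucleotide excision repair cuts out bulky lesions such as those made by ultraviolet light, and double-strand breaks are joined end to end or copied from the sister chromatid by homologous recombination. The kinases ATM and ATR sense breaks and stalled forks and, through CHEK2 and CHEK1, hold the cell cycle. Many genes of recombination, the Fanconi anaemia pathway and mismatch repair are transcribed mainly in dividing cells, under E2F factors.

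The genes differed widely in level, also within a repair route. Compared per kilobase of the longest annotated transcript, Ddb1 was the most abundant, at 136 CPM per kilobase on average over the 9 libraries. Its product is the adaptor of the CRL4 ubiquitin ligase and, with DDB2, binds ultraviolet lesions. Ddb2, the partner that recognises the lesion, stood at 0.973 CPM per kilobase. Parp1, which senses strand breaks, followed at 61.5, and the Ku subunit gene Xrcc5, the scaffold gene Xrcc1 and Brca1 came next at 38.7, 38.3 and 37.5 CPM per kilobase. The libraries of these 3 genes overlap on this scale. Xrcc6, the other Ku subunit gene, averaged 28.6 and Msh6, the mismatch sensor gene, 23.3 CPM per kilobase. Brca1 stood well above the genes whose products act with it, since Bard1, its ring-finger partner, stood at 3.90, Palb2 at 1.96 and Brca2, which acts in strand exchange, at 2.07 CPM per kilobase. Mgmt, which encodes the enzyme that takes alkyl groups off guanine, had 2 to 17 counts a library (0.126 to 1.01 CPM) and is described no further. By CPM, 28 of the 35 genes averaged between 10 and 110, Parp1, Brca1 and Ddb1 above that, and Palb2, Xpa, Ddb2 and Mgmt below.

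**Figure D1:**
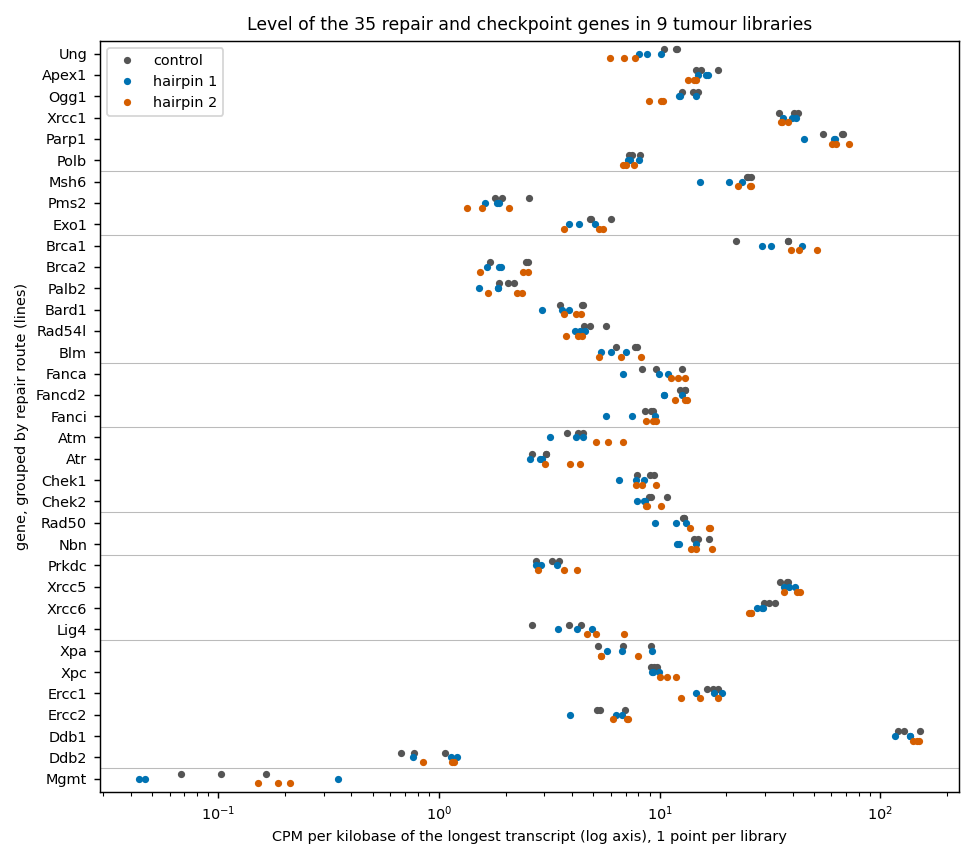
CPM per kilobase of the longest transcript (log axis) of the 35 genes, 1 point per library, with groups in colour and grey lines between repair routes. Ddb1 averages 136 and Mgmt 0.147 CPM per kilobase, and for most genes the 3 groups lie on top of each other.

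Hairpin 2 against control was the comparison in which Fbxo38 stood lowest. With p adjusted over the 14193 genes tested, edgeR placed no member under 0.05 (0 of 34; the lowest value was 0.242), and no gene of any kind did (0% called). At an unadjusted p under 0.05 there were 6 members, 3 with a lower and 3 with a higher level. That is 17.6% of the 34, against 14.4% of all genes tested (6.27% lower and 8.14% higher), so the count is near the background. Without both libraries named above it was 4, 1 higher and 3 lower, beside 10.2% of all genes. DESeq2 called 303 of the 14193 genes, among them 3 of the 34 members, those with a lower level (Ung, Ogg1 and Xrcc6), and limma-voom called 0. The median log2 fold change of the 34 was -0.02, beside 0.01 over all genes tested.

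The members of smallest p were both DNA glycosylase genes of base excision repair. Ung encodes uracil-DNA glycosylase, which removes uracil from DNA (GRCm38 chromosome 5, 114130386 to 114139323, plus strand, protein-coding, with no overlapping exon of another gene). It stood at 32.4, 37.2 and 36.7 CPM in control and at 23.8, 21.3 and 18.5 CPM with hairpin 2. Every hairpin 2 library lay below every control. By edgeR this was a log2 fold change of -0.74 (SE 0.14, with a 95% interval of -1.05 to -0.43), a level 0.598 times control, with an unadjusted edgeR p of 0.000301 and an adjusted p of 0.242 (exact two-sided permutation p = 0.1, the smallest that 3 against 3 allow). DESeq2 gave an adjusted p of 0.00345. Leaving out each of the 9 libraries in turn moved the value between -0.83 and -0.65, with an unadjusted p of at most 0.00164.

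Ogg1 encodes the glycosylase for 8-oxoguanine, the main oxidised base. It stood at 20.3, 23.9 and 22.8 CPM in control and 16.2, 14.3 and 16.6 CPM with hairpin 2, again with no overlap. The log2 fold change was -0.51 (SE 0.14; edgeR unadjusted p = 0.00402, adjusted p = 0.242; DESeq2 adjusted p = 0.0498). Its exons overlap Camk1 on the other strand in GENCODE M21, and reads of the pair cannot be told apart because the sources do not say whether counting used strand. The other 4 genes of base excision repair had smaller differences. Apex1, the abasic site nuclease gene, averaged 17.5 ± 0.733 CPM against 20.0 ± 2.46 (SD, n = 3). Xrcc1 averaged 92.2 ± 3.37 against 99.4 ± 10.1 CPM, and Polb, the gap-filling polymerase gene, 24.0 ± 1.45 against 25.6 ± 1.44 CPM (SD, n = 3). Parp1 averaged 252 ± 23.3 against 245 ± 28.5 CPM (SD, n = 3). None of these 4 had an unadjusted p under 0.05.

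In end joining, Xrcc6 and Lig4 stood on opposite sides. Xrcc6 encodes Ku70, which holds broken ends, and stood at 103, 110 and 98.3 CPM in control and 83.5, 85.5 and 85.1 CPM with hairpin 2. The 3 hairpin 2 libraries lay within 2 CPM of each other and below all controls (log2 fold change -0.29, SE 0.09; edgeR unadjusted p = 0.00791, adjusted p = 0.252; DESeq2 adjusted p = 0.0474). As with Ogg1, exons of Xrcc6 overlap a gene on the other strand, here Desi1, and reads of the pair cannot be told apart. Lig4, the ligase that seals the break, stood at 13.3, 19.6 and 22.2 CPM in control and 25.95, 34.5 and 23.6 CPM with hairpin 2. All 3 lay above every control, by a log2 fold change of 0.61 (SE 0.22; edgeR unadjusted p = 0.0196, adjusted p = 0.27). Xrcc5, the other Ku subunit gene, averaged 103 ± 8.99 against 94.4 ± 4.06 CPM (SD, n = 3), and Prkdc, the DNA-dependent kinase gene, 45.0 ± 8.98 against 40.1 ± 4.93 CPM (SD, n = 3).

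Of the 4 checkpoint kinase genes, Atm and Atr had an unadjusted p under 0.05 with hairpin 2, though neither passed the adjusted threshold. Atm stood at 44.1, 37.3 and 42.0 CPM in control and 66.8, 57.1 and 50.7 CPM with hairpin 2, with no overlap between the groups. Its log2 fold change was 0.50 (SE 0.15, with a 95% interval of 0.16 to 0.84; edgeR unadjusted p = 0.00857, adjusted p = 0.252). Atr stood at 21.3, 24.6 and 24.7 CPM in control and 31.7, 35.2 and 24.5 CPM with hairpin 2. Replicate 3 of hairpin 2 lay among the controls (log2 fold change 0.37, SE 0.15; edgeR unadjusted p = 0.0315, adjusted p = 0.302). Without replicate 2 of hairpin 2 the Atr value was 0.25, with an unadjusted edgeR p of 0.165. The Lig4 value was 0.42 without that library and also 0.42 without control replicate 1, in place of 0.61, with an unadjusted edgeR p of up to 0.0999. With the length and GC trends described below removed, Atm was at 0.13 and Atr at 0.01. Chek1 and Chek2, the effector kinase genes, averaged 32.6 ± 3.41 and 20.9 ± 1.87 CPM, against 33.4 ± 3.05 and 21.9 ± 2.37 CPM in control (SD, n = 3). Rad50, which tethers broken ends and activates ATM with Nbn, averaged 81.1 ± 9.18 against 66.1 ± 0.404 CPM (SD, n = 3), and Nbn 38.5 ± 4.48 against 38.8 ± 3.16 CPM (SD, n = 3). Differences between these genes in their response were not tested.

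**Figure D2:**
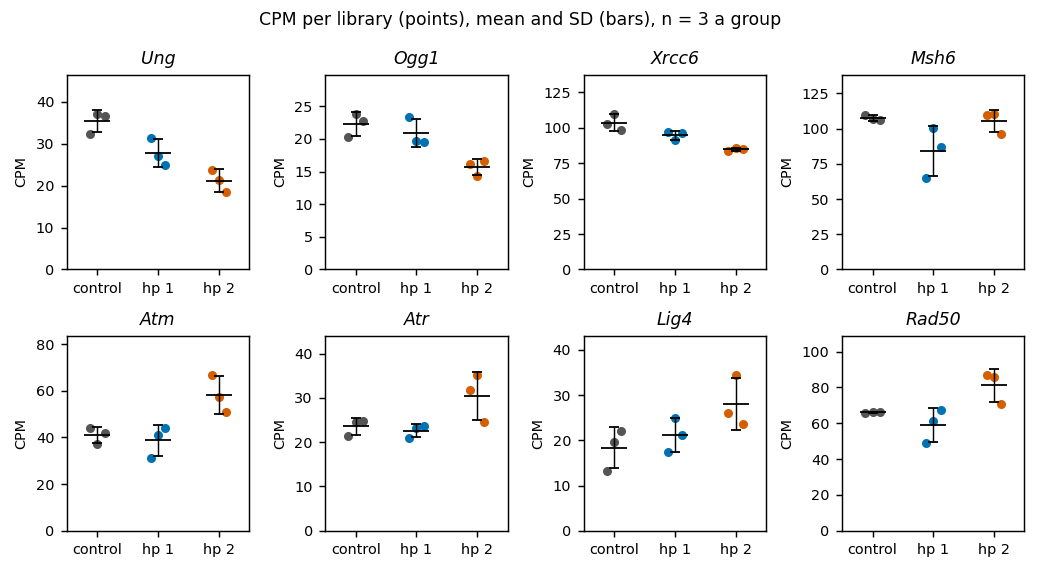
CPM per library (points) of 8 genes with the mean and SD of each group (bars, n = 3), each axis starting at 0; hp is hairpin. Ung, Ogg1 and Xrcc6 have all hairpin 2 libraries below control, Atm, Lig4 and Rad50 have all of them above, and Msh6 has its lowest library, 64.6 CPM, in the group labelled hairpin 1.

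Groups of hairpin 2 and control did not overlap for 9 members. The 4 with a lower level were Ung, Ogg1, Xrcc6 and Rad54l, 11.8% of the members beside 10.2% of all genes. The 5 with a higher level were Atm, Lig4, Rad50, Xpc and Brca1, 14.7% beside 10.6% of all genes. Both shares are near the background. Rad54l, the recombination motor gene, averaged 18.9 ± 1.64 against 23.0 ± 2.73 CPM (SD, n = 3). Brca1 averaged 293 ± 40.5 against 216 ± 60.7 CPM (SD, n = 3), its control libraries running from 146 to 252 CPM. Xpc, which finds helix distortions in nucleotide excision repair, averaged 47.4 ± 4.12 against 40.99 ± 1.17 CPM (SD, n = 3).

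No gene of the remaining routes had an unadjusted p under 0.05 with hairpin 2. In mismatch repair, Msh6 averaged 105 ± 7.96 against 108 ± 2.09 CPM, and the exonuclease gene Exo1 37.9 ± 7.85 against 40.8 ± 5.16 CPM (SD, n = 3). Pms2, a nuclease gene of this route, averaged 10.2 ± 2.28 against 12.9 ± 2.5 CPM (SD, n = 3). In recombination, Brca2 averaged 23.1 ± 5.82 against 24.0 ± 4.94 CPM, and Palb2 7.88 ± 1.41 against 7.65 ± 0.625 CPM (SD, n = 3). Bard1 averaged 23.1 ± 1.99 against 23.5 ± 3.02 CPM and the helicase gene Blm 32.1 ± 6.94 against 34.95 ± 4.02 CPM (SD, n = 3), all within the spread of the libraries. The Fanconi anaemia genes act at crosslinks. Fancd2 and Fanci, which form the clamp at the crosslink, averaged 70.0 ± 4.68 and 42.7 ± 2.40 CPM against 70.5 ± 2.09 and 41.7 ± 1.85 CPM in control (SD, n = 3). Fanca, of the ligase that marks this clamp, averaged 54.5 ± 3.99 against 45.5 ± 9.91 CPM (SD, n = 3). In nucleotide excision repair, Ddb1, Ddb2, Ercc1 (a nuclease subunit), Ercc2 (a TFIIH helicase) and Xpa (the damage verifier) had 95% intervals that span 0, for example -0.12 to 0.37 for Ddb1 and -0.44 to 1.11 for Ddb2. Ddb2 had the fewest reads of the tested members, down to 26 counts in a library, which limits its precision.

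**Figure D3:**
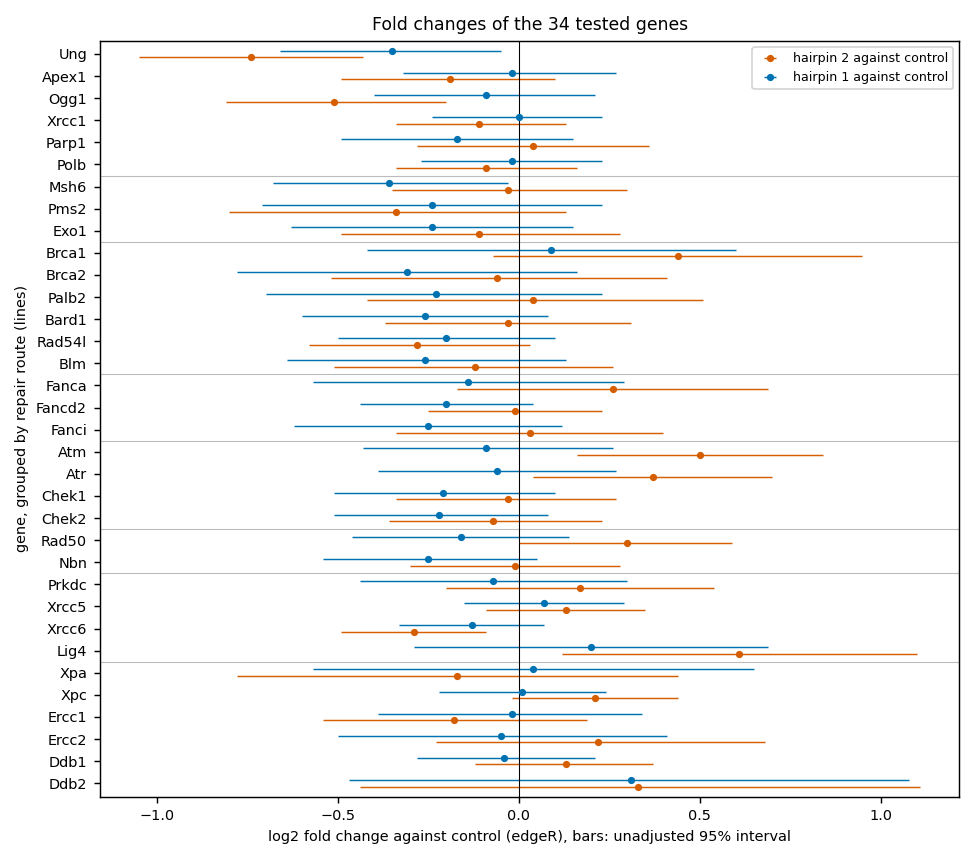
Log2 fold change against control (edgeR) of the 34 tested genes, with unadjusted 95% intervals, for hairpin 2 (orange) and the libraries labelled hairpin 1 (blue). Both comparisons use the same control libraries. Most intervals span 0, Ung has both intervals below it, and 28 of the 34 blue points lie below 0.

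Values with hairpin 2 varied with transcript length and with GC content. Over the 34 members, which are genes and not replicates, the rank correlation (Spearman's rho) of transcript length with the log2 fold change was 0.417 with hairpin 2 and -0.277 in the libraries labelled hairpin 1, beside 0.373 and -0.019 over 14109 genes. The rho with GC content of the transcript was -0.376 across the members with hairpin 2. The points share the same libraries. The 17 shorter members (1239 to 4251 bases) had a median log2 fold change of -0.07 with hairpin 2, and the 17 longer ones (4347 to 12647 bases) a median of 0.13. Atm (9819 bases) and Atr (8102 bases) are among the longest transcripts of the members, Lig4 has 5028 bases, and Ogg1 only 1601. Prkdc (12647 bases, log2 fold change 0.17), Brca2 (10724 bases, -0.06) and Exo1 (7796 bases, -0.11) are also long and stood nearer to control. Length as a cause of these values was not tested. Each library's smooth trend on both transcript length and GC content was then removed at once, so that their parts are not separated. In that fit 7 of the 34 members had an unadjusted p under 0.05, all with a lower level and none with a higher one. Beside them stood 9.55% of all genes, a share that counts both directions. The Atm value then was 0.13 (SE 0.11), Atr 0.01 (SE 0.12), Rad50 0.13 (SE 0.11) and Lig4 0.44 (SE 0.21; edgeR unadjusted p = 0.0593). Ung was at -0.70 (SE 0.14; edgeR unadjusted p = 0.000373, adjusted p = 0.466), beside -0.74 as fitted first. Ogg1 was at -0.32 (SE 0.12) in place of -0.51, and Xrcc6 at -0.21 (SE 0.08) in place of -0.29. The other 4 of the 7 were Exo1, Rad54l, Pms2 and Brca2, none with an unadjusted edgeR p under 0.05 as fitted first. Exo1 was at -0.41 (SE 0.13) in place of -0.11, and Rad54l at -0.38 (SE 0.14) in place of -0.28. Pms2 was at -0.54 (SE 0.21) in place of -0.34, and Brca2 at -0.46 (SE 0.19) in place of -0.06. None of the 34 members had an adjusted p under 0.05 in this fit either.

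**Figure D4:**
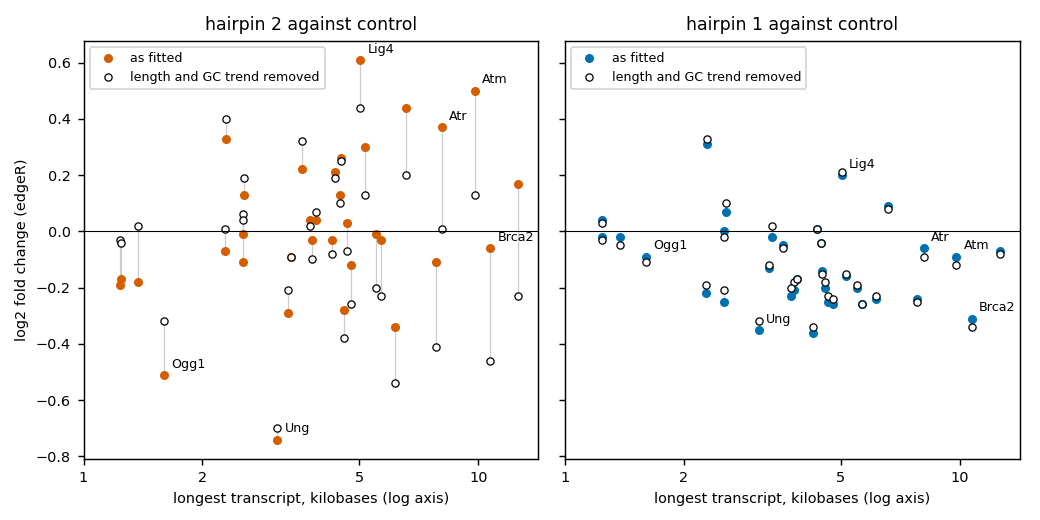
Log2 fold change (edgeR) of the 34 members against the length of the longest transcript (log axis), as fitted (filled) and with each library's length and GC trend removed (open), joined by grey lines; left hairpin 2 and right the libraries labelled hairpin 1, both against the same controls. With hairpin 2 the open points of Atm (0.13) and Atr (0.01) lie well below the filled ones (0.50 and 0.37), while Ung stays at -0.70 beside -0.74; on the right filled and open points nearly coincide.

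The promoters of the 6 members with an unadjusted p under 0.05 with hairpin 2 are shown to set the genes with a lower level (Ung, Ogg1, Xrcc6) beside those with a higher one (Atm, Lig4, Atr). The sequences are from RefSeq (GRCm38.p6), 300 bases each, read 5′ to 3′ on the gene's strand. Ung lies at chr5:114130185-114130484 (plus strand), Ogg1 at chr6:113326726-113327025 (plus strand), Xrcc6 at chr15:82016119-82016418 (plus strand), Atm at chr9:53536622-53536921 (minus strand), Lig4 at chr8:9977631-9977930 (minus strand) and Atr at chr9:95857347-95857646 (plus strand). Capitals mark letters that E2F factors bind, searched as TTGGCGC, as TTCCCGC and as TTCGCGC on both strands, with overlaps between them allowed.
Ung: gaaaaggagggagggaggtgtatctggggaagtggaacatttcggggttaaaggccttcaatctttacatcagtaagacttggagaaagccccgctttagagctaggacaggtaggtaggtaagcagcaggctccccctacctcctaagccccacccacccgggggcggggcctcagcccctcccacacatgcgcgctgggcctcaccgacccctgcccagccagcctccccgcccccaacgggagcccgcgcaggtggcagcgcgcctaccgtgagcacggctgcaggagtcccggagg
Ogg1: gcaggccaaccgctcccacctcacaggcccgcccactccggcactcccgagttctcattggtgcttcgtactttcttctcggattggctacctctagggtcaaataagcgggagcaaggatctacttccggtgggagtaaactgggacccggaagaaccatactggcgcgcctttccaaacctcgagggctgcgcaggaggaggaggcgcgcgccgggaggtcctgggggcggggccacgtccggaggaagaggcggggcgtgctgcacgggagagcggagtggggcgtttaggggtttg
Xrcc6: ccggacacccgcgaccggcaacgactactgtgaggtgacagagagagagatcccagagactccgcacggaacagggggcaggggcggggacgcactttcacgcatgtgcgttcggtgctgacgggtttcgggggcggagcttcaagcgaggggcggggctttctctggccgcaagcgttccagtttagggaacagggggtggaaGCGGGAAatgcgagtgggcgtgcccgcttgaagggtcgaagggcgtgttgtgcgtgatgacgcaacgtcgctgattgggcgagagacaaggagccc
Atm: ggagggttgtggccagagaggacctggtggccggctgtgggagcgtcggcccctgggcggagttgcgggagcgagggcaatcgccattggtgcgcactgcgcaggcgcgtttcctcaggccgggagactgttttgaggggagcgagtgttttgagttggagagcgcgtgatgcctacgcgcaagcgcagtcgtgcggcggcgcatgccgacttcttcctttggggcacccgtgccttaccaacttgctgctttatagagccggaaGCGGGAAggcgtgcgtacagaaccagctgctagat
Lig4: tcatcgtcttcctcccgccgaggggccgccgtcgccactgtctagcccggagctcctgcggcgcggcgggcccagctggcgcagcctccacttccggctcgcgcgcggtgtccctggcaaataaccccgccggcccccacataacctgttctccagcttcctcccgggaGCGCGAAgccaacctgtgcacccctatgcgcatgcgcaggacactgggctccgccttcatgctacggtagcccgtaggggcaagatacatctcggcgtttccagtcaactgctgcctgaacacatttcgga
Atr: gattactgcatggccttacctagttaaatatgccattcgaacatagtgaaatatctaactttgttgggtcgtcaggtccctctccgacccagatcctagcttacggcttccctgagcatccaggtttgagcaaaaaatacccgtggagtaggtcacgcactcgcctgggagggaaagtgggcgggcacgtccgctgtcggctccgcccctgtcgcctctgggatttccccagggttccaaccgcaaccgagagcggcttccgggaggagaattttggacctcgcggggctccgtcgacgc
Xrcc6, Atm and Lig4 each hold 1 match, so matches stand in genes of either direction, and Ung, Ogg1 and Atr hold none in this window. For Lig4 the table has a second promoter, which holds no match. Promoters were found for 27 of the 35 members. Of these 27 genes, 14 (51.9%) held an E2F match, against 16.7% of 10290 tested genes with a promoter, 36% of 100 other repair genes and 9.2% of all genes. The 14 are Apex1, Atm, Bard1, Brca1, Brca2, Chek1, Chek2, Ercc1, Ercc2, Fanci, Lig4, Msh6, Pms2 and Xrcc6. CCAAT, the letters of NF-Y, stood in 59.3% of the members and 42.9% of tested genes, and TTTGAA or TTCGAA, letters found in promoters of cell cycle genes, in 11.1% and 16.3%. A match is a run of letters and not a measured binding site.

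The libraries labelled hairpin 1 had lower values for most members, but none passed the test. edgeR placed 0 of 34 and 0% of all genes below an adjusted p of 0.05, every member standing at 1, and DESeq2 and limma-voom also called 0. At an unadjusted p under 0.05 there were 2 members, both lower, 5.88% beside 3.17% of all genes tested (1.32% lower and 1.85% higher). The count was 0 without control replicate 2 or control replicate 3, beside 2.86% and 1.41% of all genes. It was 1 without control replicate 1 (3.92%), or without replicate 1 (3.57%) or 3 (3.95%) labelled hairpin 1. Of the 34 members, 28 (82.4%) had a negative log2 fold change, beside 47.4% of all genes, with a median of -0.13 beside 0.01. Groups did not overlap for 5 members, all lower (Ung, Msh6, Chek2, Xrcc6 and Palb2), 14.7% of the members beside 4.3% of all genes, and for 0 higher beside 4.09%. Without replicate 1 labelled hairpin 1, which held the most fibroblast RNA, 24 of 34 were negative with a median of -0.11. Without control replicate 1, 22 of 34 were negative with a median of -0.13.

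Ung was again the member of smallest p, at 31.3, 27.1 and 24.9 CPM in the libraries labelled hairpin 1. All 3 lay below every control, with a log2 fold change of -0.35 (SE 0.14; edgeR unadjusted p = 0.0283, adjusted p = 1). Leaving out single libraries moved it between -0.46 and -0.28. Msh6 stood at 64.6, 100.2 and 87.2 CPM, against 110, 107 and 106 CPM in control (log2 fold change -0.36, SE 0.15; edgeR unadjusted p = 0.0346). Its distance from control lay mainly in replicate 1, and the value was -0.21 without it. Next by p came Nbn at -0.25 (SE 0.13), Fancd2 at -0.20 (SE 0.11) and Bard1 at -0.26 (SE 0.15), none with an unadjusted p under 0.05. All 6 base excision genes, 5 of 6 recombination genes, all 3 Fanconi genes and all 3 mismatch repair genes had negative values there. So did all 4 checkpoint kinase genes and both MRN genes, beside 47.4% of all genes. Several of these values were small: Xrcc1, Apex1 (-0.02) and Polb (-0.02) were close to 0. Atr was at -0.06, and Atm and Ogg1 were at -0.09. End joining and nucleotide excision repair were divided, with 2 of 4 and 3 of 6 negative.

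Genes of dividing cells also stood at lower summed levels in the libraries labelled hairpin 1. The 12 S phase genes summed to 2990 to 3175 CPM in control, 2345 to 2775 CPM in the libraries labelled hairpin 1 and 2574 to 2842 CPM with hairpin 2, so no hairpin library reached the lowest control. The 10 genes of G2 and M phase summed to 1733 to 1903, 1360 to 1676 and 1577 to 2091 CPM. Replicate 1 labelled hairpin 1 had the lowest sum for S phase (2345 CPM), for G2 and M phase (1360 CPM) and for the 35 repair genes (1903 CPM), and the highest for fibroblast markers. The 35 genes summed to 2153 to 2421 CPM in control, 1903 to 2310 CPM in the libraries labelled hairpin 1 and 2365 to 2477 CPM with hairpin 2, groups that overlap. In bulk tumours, fewer cells of a type and less RNA per cell cannot be told apart, and the part of cell makeup or proliferation in the repair gene values was not tested. The 8 p53 target genes, which respond to damage signals, summed to 571 to 778, 541 to 775 and 565 to 652 CPM. With hairpin 2, 4 of these 8 had a positive and 4 a negative log2 fold change, and 1 had an unadjusted p under 0.05, the cell death gene Bax at -0.26 (SE 0.11; edgeR unadjusted p = 0.0414, adjusted p = 0.324). The cell cycle inhibitor gene Cdkn1a was at -0.55 (SE 0.26), Phlda3 at -0.34 (SE 0.22) and Sesn2 at -0.34 (SE 0.21). Zmat3 was at 0.52 (SE 0.25), Eda2r at 1.11 (SE 0.69), the p53 ligase gene Mdm2 at 0.12 (SE 0.16) and Ccng1 at 0.02 (SE 0.21).

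The average of the 2 hairpin groups was compared with the same controls, a value that either group alone can carry. edgeR called 0 of 34 members (lowest adjusted p = 0.674) and 0% of all genes, DESeq2 called 8 genes but no member, and limma-voom called 0. At an unadjusted p under 0.05 there were 3 members, all lower, 8.82% beside 7.29% of all genes (3.36% lower and 3.92% higher). Without control replicate 2 the count was 1 (4.79% of all genes), and without both libraries named above it was 3 (8.14% of all genes). The 3 were Ung at -0.55 (SE 0.12; edgeR unadjusted p = 0.000836, adjusted p = 0.674), Xrcc6 at -0.21 (SE 0.08; unadjusted p = 0.0194) and Ogg1 at -0.30 (SE 0.12; unadjusted p = 0.0278). The Ogg1 value came mainly from hairpin 2, at -0.51 beside -0.09 in the libraries labelled hairpin 1, where the groups overlap. Ung and Xrcc6 were the members with all 6 hairpin libraries below all 3 controls, 5.88% beside 1.61% of all genes, and 0 lay wholly above beside 1.36% (exact two-sided permutation p = 0.0238 for each, where 6 against 3 can reach 0.0119). Xrcc6 stood at 96.9, 91.0 and 96.2 CPM in the libraries labelled hairpin 1. Lig4 and Rad54l followed by p, at 0.41 (SE 0.19) and -0.24 (SE 0.12). Lig4 was at 0.22 without control replicate 1, and Rad54l at -0.15 without control replicate 2.

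Hairpin 2 was also set against the libraries labelled hairpin 1, a test of the difference between both effects. Its fold changes compare the hairpin libraries, while the controls enter the filter, scaling and spread of the fit. edgeR called 0 of 34 members (lowest adjusted p = 0.375) and 0% of all genes, DESeq2 called 89 genes and no member, and limma-voom called 0. At an unadjusted p under 0.05 there were 6 members, 4 higher and 2 lower with hairpin 2, 17.6% beside 11.7% of all genes (6.42% higher and 5.23% lower). In a fit of these 2 groups alone it was 5, 3 higher and 2 lower, beside 9.23% of all genes. The count was 2 without replicate 1 labelled hairpin 1, 3 without replicate 2 of hairpin 2 and 1 without both. The share of all genes fell as well, to 6.73%, 5.07% and 3.75% in these fits. The higher ones were Atm at 0.59 (SE 0.15; edgeR unadjusted p = 0.00333, adjusted p = 0.375), Rad50 at 0.46 (SE 0.13), Atr at 0.43 (SE 0.15) and Msh6 at 0.33 (SE 0.15). Msh6 was at 0.17 without replicate 1 labelled hairpin 1. The lower ones were Ogg1 at -0.41 (SE 0.14; unadjusted p = 0.013) and Ung at -0.39 (SE 0.14; unadjusted p = 0.0182). Of the 34 members, 24 had positive and 10 (29.4%) negative values, beside 49.8% negative over all genes. All 4 checkpoint kinase genes, all 3 Fanconi genes and both MRN genes had positive values, while 5 of 6 base excision genes had negative ones. The other routes were divided, with 1 of 6 negative in recombination, 1 of 3 in mismatch repair, 1 of 4 in end joining and 2 of 6 in nucleotide excision repair. The groups did not overlap for 7 members with a higher level (Atm, Rad50, Atr, Fanca, Xpc, Ddb1 and Chek2), 20.6% beside 8.31% of all genes, and for 4 with a lower one (Ogg1, Ung, Xrcc6 and Apex1), 11.8% beside 7.67%. Atm stood at 31.2, 41.1 and 43.9 CPM in the libraries labelled hairpin 1, all below the 50.7 CPM of the lowest hairpin 2 library. Rad50 stood at 48.8, 61.2 and 67.5 CPM there and at 87.1, 85.7 and 70.5 CPM with hairpin 2. Length went with this difference as well (Spearman's rho 0.631 across the 34 members, 0.419 across 14109 genes). With the length and GC trend removed, Atm was at 0.25 (SE 0.11), Rad50 at 0.28 (SE 0.11), Atr at 0.10 (SE 0.12), Ogg1 at -0.21 (SE 0.12) and Ung at -0.38 (SE 0.14).

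A wider list held 126 other repair genes, of which 125 were tested. With hairpin 2, 21 of 125 (16.8%) had an unadjusted p under 0.05, beside 17.6% of the members and 14.4% of all genes. The 21 were 7 higher and 14 lower, while the members were 3 and 3, and all genes were 8.14% higher and 6.27% lower. None of the 125 had an adjusted p under 0.05 by edgeR. By DESeq2, Alkbh3 and Mad2l2 had adjusted p-values of 0.0455 and 0.0355. Alkbh3, a demethylase for alkylated DNA, stood at 27.4, 31.1 and 30.4 CPM in control and 21.1, 17.5 and 22.8 CPM with hairpin 2 (edgeR log2 fold change -0.54, SE 0.14). Mad2l2, a subunit of translesion polymerase zeta, stood at 17.9, 20.4 and 22.5 CPM in control and 11.5, 12.8 and 15.1 CPM with hairpin 2 (-0.62, SE 0.16). Both are short transcripts, of 1395 and 1535 bases. The next genes with a lower level by p were Rad9a, of the checkpoint clamp (-0.39, SE 0.13), Clspn, the adaptor through which ATR reaches CHEK1 (-0.58, SE 0.20), and Rpa2, of the single-strand binding complex (-0.36, SE 0.13). The Clspn groups overlap, with control replicate 1 at 32.9 CPM and hairpin 2 replicate 1 at 36.8 CPM. Those with a higher level and the smallest p were Shprh, a ubiquitin ligase of damage tolerance (0.43, SE 0.12), the helicase gene Wrn (0.49, SE 0.15), Mlh3 of mismatch repair (0.50, SE 0.15), Ube2b, which acts with RAD18 (0.33, SE 0.10), and Slx4ip (0.56, SE 0.19). Of these 5, Ube2b has a transcript of 1792 bases and the other four have 5089 to 9271. Across the 125 genes rho between log2 fold change and length was 0.52.

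In the libraries labelled hairpin 1, 11 of the 125 other genes (8.8%) had an unadjusted p under 0.05, all lower, beside 3.17% of all genes, and edgeR and DESeq2 gave none an adjusted p under 0.05. Among those of smallest p were Dna2, an end-resection nuclease (-0.42, SE 0.15), Clspn (-0.53, SE 0.20), Cdc25a, the phosphatase that CHEK1 targets (-0.39, SE 0.15), and Timeless, of the fork protection complex (-0.28, SE 0.11). The Clspn groups overlap here and in the mean of both hairpins. Replicate 1 labelled hairpin 1 stood at 33.9 CPM and control replicate 1 at 32.9 CPM. In the mean of both hairpins 12 of 125 (9.6%) had an unadjusted p under 0.05, 2 higher and 10 lower, beside 7.29% of all genes (3.92% higher and 3.36% lower). Clspn (-0.55, SE 0.17), Rad9a (-0.34, SE 0.11), Timeless (-0.30, SE 0.10), and Rpa2 (-0.31, SE 0.11) were among those of smallest p on the lower side, and the higher ones were Mlh3 (0.37, SE 0.13) and Ube2b (0.25, SE 0.09). These values and those of each hairpin group share the same controls. Between the hairpin groups, 17 of 125 (13.6%) had an unadjusted p under 0.05, 12 higher and 5 lower with hairpin 2, beside 11.7% of all genes. Wrn had the smallest p (0.61, SE 0.15; edgeR adjusted p = 0.375, DESeq2 adjusted p = 0.0486), at 14.5, 14.5 and 14.6 CPM in the libraries labelled hairpin 1 and 24.5, 19.1 and 22.9 CPM with hairpin 2. Next on the higher side came Shprh (0.45, SE 0.12), Mdc1, a scaffold at breaks (0.48, SE 0.14), the fork remodeller gene Hltf (0.46, SE 0.14) and the helicase gene Helq (0.40, SE 0.16). On the lower side were Paxx of end joining (-0.68, SE 0.22), Mad2l2 (-0.49, SE 0.16), Alkbh3 (-0.39, SE 0.14), the polymerase gene Poll (-0.34, SE 0.13) and Mus81, a nuclease gene (-0.48, SE 0.21).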

How the data were processed

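RNA of 9 tumours was extracted with TRIzol and sequenced, per the labels' protocols. The authors deposited whole-number counts per gene symbol, 1 file per library. The submitters' processing notes name Cufflinks, STAR 2.7.0d and 2 human genome builds (hg38, GRCh38), while the gene symbols in the files are those of mouse. The sources used here do not give the counter, the annotation or the strand setting. In GENCODE M21 (GRCm38), exons of 19 of the 35 members overlap another gene, 17 of them on the other strand, and their reads may be shared. Among the 17 are Ogg1, Xrcc6, Atr, Msh6 and Rad54l.

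The test was edgeR's quasi-likelihood test (version 4.0.16, R 4.3.3), robust, over the 9 libraries together, after TMM scaling and the filterByExpr filter with at least 10 counts and a total of 15, with Benjamini-Hochberg adjustment over 14193 genes. CPM uses TMM-scaled library sizes; log2 CPM for permutation tests used a prior count of 2. Length and GC content are those of each symbol's longest GENCODE M21 transcript, found for 99.4% of tested genes. Of these steps only the edgeR fit was also run on simulated counts. The permutation tests and the alternatives below were not. Alternatives were DESeq2 1.42.0 and its size factors, limma-voom (limma 3.58.1), no filter, the compared groups alone, a replicate block, removal of length and GC trends (splines of 5 degrees of freedom), and leaving out each library. Leaving out both libraries that stood apart was added after seeing the data. Members, lists and rules were chosen with earlier results of these data known. Log2 fold changes are given for members at an unadjusted p under 0.05 and otherwise for the 5 of smallest p, and for up to 5 other repair genes per direction, of which 1 is not reported here. All other members are given by level. Values with the length trend removed, and leave-one-out values, were singled out after they were seen.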

Additional observations from a re-analysis of the deposited data

How the results depend on the processing

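With DESeq2 in place of edgeR, 3 of 34 members passed the adjusted threshold with hairpin 2, beside 303 of 14193 genes. In every other alternative and comparison run the count of members past it was 0. For the mean of both hairpins, 5 members in place of 3 had an unadjusted p under 0.05 after removal of length and GC trends, beside 6.38% of all genes. With both libraries that stand apart left out, that count was 1 in the libraries labelled hairpin 1 (in place of 2; 3.78% of all genes) and 1 between the hairpin groups (in place of 6; 3.75% of all genes). Leaving out single libraries, that count ran from 4 to 7 with hairpin 2 (7.64% to 16.9% of all genes). It ran from 0 to 3 in the libraries labelled hairpin 1 (1.41% to 3.95%) and 1 to 4 for the mean (2.86% to 10.3%). Between the hairpin groups it ran from 2 to 9 (5.07% to 16.7%). Across 54 pairs of a named gene and a comparison, none changed direction in 906 refitted values, and 6 passed the adjusted threshold, all with DESeq2. The pairs were picked by smallest p in these same data and the refits share their libraries, so a kept direction is not separate evidence. Deviations of same-numbered libraries from their group means had correlations from -0.409 to 0.138 over the tested genes. With 3 libraries a group, this cannot decide whether the numbers stand for a shared batch or pairing. With the replicate number as a block 6, 2, 3 and 5 members had an unadjusted p under 0.05 in the 4 comparisons in the order hairpin 2, labelled hairpin 1, mean and between the hairpin groups, beside 10.6%, 2.02%, 4.94% and 8.04% of all genes. The fit of only the compared groups has no form of its own for the mean of both hairpins. Depth limits Mgmt, with at most 17 counts a library, and Ddb2.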
